A study of Mus musculus with 2 samples.

Results

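The genes of the mitochondrial respiratory chain and ATP synthase were examined for ATF4 peaks in a CUT&Tag library of primary mouse neurons. Members were all protein-coding genes of the RefSeq gene table of GRCm38.p6 on nuclear chromosomes whose symbol starts with Nduf, Sdh (Sdha to Sdhd and Sdhaf), Uqcr, Cox4 to Cox8 or Atp5, which gave 100 of 21883 protein-coding genes. The rule uses symbols only and no measured value, but it was chosen with earlier results of these data known. The neurons came from cortex and hippocampus of late-gestation C57BL/6 embryos and, per the study's methods, were used after some days in culture; no genetic change is given for these mice, and neither the labels nor the methods state whether the cells had been exposed to hemin, the hemoglobin product that the study used to injure neurons. 2 libraries were made from about 100000 cells each, 1 with an antibody against ATF4 and 1 with IgG. The results rest on the peaks of the ATF4 library; the IgG library is not analysed here. The labels call the cells primarily neurons. With 1 library and no replicate, every value below describes that library, no difference has a replicate error, and no test between groups of genes was made.

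The respiratory chain passes electrons from NADH through complex I, and from succinate through complex II, by way of coenzyme Q to complex III, and then by cytochrome c to complex IV, where oxygen is reduced. Complexes I, III and IV pump protons across the inner mitochondrial membrane, and ATP synthase uses the returning protons to make ATP. Neurons draw much of their ATP from this route. ATF4 is a basic leucine zipper transcription factor whose translation rises when eIF2α is phosphorylated, and it is best known for binding genes of amino acid supply and of the stress response. CUT&Tag records where an antibody-bound protein sits on DNA, because the tethered transposase tags the DNA next to it.

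The peak list held 7873 peaks on 21 chromosomes, and a median of 4 fragments was stacked at a summit. Each peak has a fold enrichment (the authors' ratio of fragments to a local background; whether IgG entered that background is not given) and a q-value, and the number of fragments was solved from the deposited fold enrichment and p-value. Of 16 known ATF4 targets, 13 had a summit within 1 kb of a gene end. The share was 8.12% among protein-coding genes outside the respiratory chain and ATP synthase. This list was written down with results for this library known and holds Psat1, Phgdh, Shmt2 and Mthfd2, which the study itself examined in this library, so its count is not independent evidence. Among marker genes, Tubb3 was the only 1 of 6 neuronal markers with such a peak, and 0 of 12 markers of astrocytes, microglia and oligodendrocytes had one. A peak at a gene is not its expression, so these counts do not give the makeup of the culture.

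A summit within 1 kb of either end of the gene, called a gene-end peak here, was present at 11 of the 100 respiratory chain and ATP synthase genes (11%, Clopper-Pearson 95% interval 5.62% to 18.8%). Among the other protein-coding genes the share was 8.12% (1769 of 21783), which lies inside that interval. Intervals cover the counting of genes only, and neighbouring genes can share a peak. ATP synthase had the highest share, with peaks at Atp5g1, Atp5o, Atp5h and Atp5md among 17 genes (23.5%, interval 6.81% to 49.9%), an order that did not hold under 5 of the alternative settings. With peaks above the median fold enrichment it was 11.8%, against 12.5% in complexes II and III, and with at least 6 fragments it was 5.88%, against 12.5% in complex III. Complex I reached 4 of 49 genes (8.16%, interval 2.27% to 19.6%), namely Ndufb5, Ndufs8, Ndufa13 and Ndufa11. Complexes were assigned by the start of the symbol alone, so this group includes Ndufa4 and Ndufa4l2. The place of each product in a complex was not checked. Complexes II and III each had 1 of 8 genes (12.5%, interval 0.316% to 52.7%), Sdha and Uqcrq, and complex IV had Cox6b2 alone among 18 genes (5.56%, interval 0.141% to 27.3%). The intervals of all 5 groups overlapped one another and held the share of other genes.

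**Figure D1:**
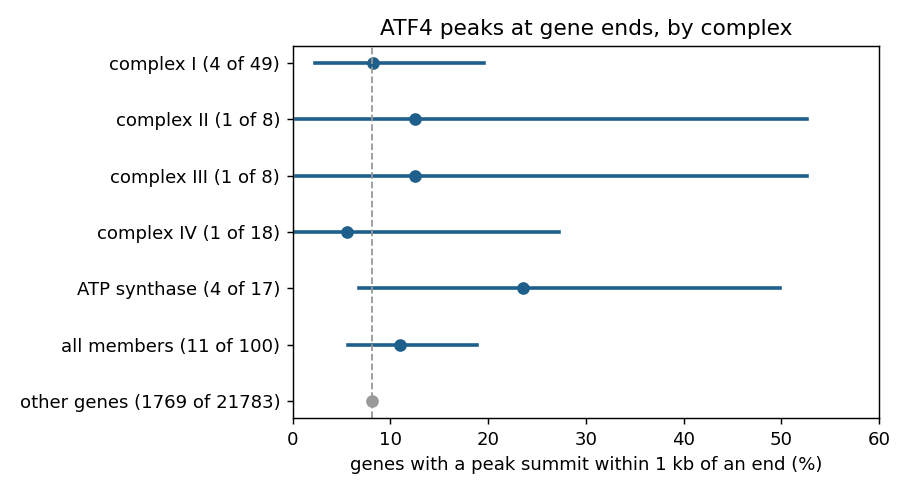
Share of genes with an ATF4 peak summit within 1 kb of an end (%, x axis) for each complex, for all 100 members and for the other protein-coding genes; points are shares, lines are Clopper-Pearson 95% intervals and the dashed line marks the share of other genes, 8.12%. Every interval of the 5 complexes spans the dashed line, with ATP synthase highest at 23.5% and complex IV lowest at 5.56%.

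The tallest of these peaks by fold enrichment lay at Ndufb5, an accessory subunit of the membrane arm of complex I. It ran over chr3:32736823-32737050 and had 13 fragments at its summit (exact Poisson 95% interval 6.92 to 22.2, counting error only). The fold enrichment was 9.78, at q = 2.63e-12. The summit was 163 bp outside the gene and 139 bp from an end of Mrpl47, a mitochondrial ribosomal protein gene that is read in the opposite direction, so the summit lay between the starts of both genes. In the RefSeq promoter windows, which run from 250 bases before to 50 bases after a gene start in GRCm38.p6, 3 members held their own summit. Those windows are shown because the summit and the gene start fall within the same bases, although the peak at Atp5g1 runs past both sides of its window; they are written 5′ to 3′ on the strand of the gene, and capitals mark the 21 bases centred on the summit.
Ndufb5 (chr3:32736813-32737112, plus strand): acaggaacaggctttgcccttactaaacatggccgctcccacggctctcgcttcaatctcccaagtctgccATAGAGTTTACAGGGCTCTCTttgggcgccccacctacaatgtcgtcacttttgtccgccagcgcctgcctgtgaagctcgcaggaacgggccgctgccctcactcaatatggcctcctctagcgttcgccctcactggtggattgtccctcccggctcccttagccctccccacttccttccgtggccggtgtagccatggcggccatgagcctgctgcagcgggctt
Ndufs8 (chr19:3912725-3913024, minus strand): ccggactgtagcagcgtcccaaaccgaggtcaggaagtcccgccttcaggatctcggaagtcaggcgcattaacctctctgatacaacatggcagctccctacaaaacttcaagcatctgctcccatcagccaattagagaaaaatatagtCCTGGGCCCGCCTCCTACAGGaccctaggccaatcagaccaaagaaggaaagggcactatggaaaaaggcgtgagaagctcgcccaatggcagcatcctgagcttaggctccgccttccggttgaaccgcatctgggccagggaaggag
Atp5g1 (chr11:96075582-96075881, minus strand): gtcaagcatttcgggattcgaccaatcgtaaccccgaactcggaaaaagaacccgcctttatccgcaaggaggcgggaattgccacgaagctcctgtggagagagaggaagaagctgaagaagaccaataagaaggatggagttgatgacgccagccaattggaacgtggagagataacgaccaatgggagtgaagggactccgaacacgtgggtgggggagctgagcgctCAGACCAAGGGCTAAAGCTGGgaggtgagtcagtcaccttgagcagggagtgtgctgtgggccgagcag
The summit lay 169 bp upstream of the start of Ndufb5, 89 bp upstream of that of Ndufs8 and 9 bp upstream of that of Atp5g1, so all 3 were on the upstream side of the start in the promoter table. For Atp5g1 the gene table sets the end of the gene farther out, and there the summit is 54 bp inside the gene.

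The other complex I peaks were lower. Ndufs8, which encodes a core subunit carrying iron-sulfur clusters, had 5 fragments (1.62 to 11.7) at chr19:3912735-3913007, where the fold enrichment was 5.08 (q = 0.000157). Ndufa13 is an accessory subunit also known as Grim-19. Its peak, chr8:69902969-69903330, held 6 fragments (2.20 to 13.1) at q = 0.000623 (fold enrichment 4.98), and the summit was 593 bp outside the gene and 1131 bp upstream of the start in the promoter table. Tssk6, a testis kinase gene, had an end nearer to that summit, at 367 bp. At Ndufa11, an accessory subunit of the membrane arm, the summit lay 491 bp upstream of the start, in chr17:56717084-56717324, where 5 fragments gave a fold enrichment of 4.67 at q = 0.00127; an end of Vmac was 428 bp away. The fragment intervals of these 3 peaks overlapped each other and that of Ndufb5, so the order of the 4 is not resolved at this depth. No peak lay at an end of any of the 8 Ndufaf genes, which encode assembly factors of complex I. The interval of that count, 0% to 36.9%, holds the 8.12% of other genes.

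Sdha encodes the flavoprotein that oxidizes succinate and thereby belongs to the citric acid cycle as well as to complex II. Its peak, chr13:74350006-74350190, held 5 fragments (1.62 to 11.7; fold enrichment 5.04, q = 0.000194), with the summit inside the gene, 143 bp downstream of the start and 220 bp from an end of Ccdc127. The other subunits Sdhb, Sdhc and Sdhd and the 4 Sdhaf assembly factors had none. For the Sdhaf genes the interval is 0% to 60.2%, which holds the 8.12% of other genes. Uqcrq encodes a small subunit of complex III and carried the widest of the 11 gene-end peaks, 726 bp, over chr11:53430399-53431124. That peak had 13 fragments (6.92 to 22.2) and was enriched 7.80-fold (q = 5.29e-09). Its summit was 74 bp inside Uqcrq and 17 bp from an end of Gdf9, which encodes a growth factor of the oocyte. Its distance from the gene start is not given here. In complex IV, none of the 10 genes counted as subunits had a gene-end peak (interval 0% to 30.8%, which holds the 8.12% of other genes). Cox6b2, the testis form of a small subunit, is 1303 bp long, and its summit lay inside the gene, 562 bp from one end and 740 bp from its start, in chr7:4752247-4752460. That peak rested on 3 fragments (0.619 to 8.77) and was enriched 3.68-fold (q = 0.00372).

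Each of the 4 ATP synthase summits lay within 282 bp of the gene start. Atp5g1 encodes an isoform of subunit c, which forms the membrane ring of the rotor, and its peak was the tallest of the 4, over chr11:96075463-96076078, with 7 fragments (2.81 to 14.4) and 5.59-fold enrichment (q = 9.74e-05). Atp5g2 and Atp5g3, the paralogs for the same subunit, had no gene-end peak. Atp5o, the stalk subunit that holds the catalytic head, had 5 fragments (1.62 to 11.7) at chr16:91931337-91931548, where enrichment was 5.19-fold (q = 8.76e-05) and the summit lay 148 bp downstream of the start. Those at Atp5h, a subunit of the peripheral stalk, and at Atp5md, a small membrane subunit, rested on 3 fragments each (0.619 to 8.77). Their fold enrichments were 3.65 (q = 0.00372, chr11:115419709-115419883) and 3.44 (q = 0.0175, chr19:47090927-47091127). The genes of the catalytic head and its central stalk, Atp5a1, Atp5b, Atp5c1, Atp5d and Atp5e, had none within 1 kb of an end. They are too few for this absence to be set against the 8.12% of other genes.

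The heights of the member peaks were set beside those of peaks at ends of other genes, a group that also holds the 9 member peaks lying at an end of another gene. The 11 peaks had fold enrichments from 3.44 to 9.78 with a median of 5.04, and the 1525 peaks at ends of other genes also had a median of 5.04 (quartiles 4.14 and 6.59, highest 31.0). The median was 5 fragments in both groups. The share of peaks with 3 fragments was 27.3% for members (3 of 11) and 21.7% for other genes, and at least 6 fragments were reached by 4 of 11 and 44.9%. No gene-end peak of a member exceeded 13 fragments, whereas up to 210 fragments were held by a gene-end peak elsewhere, and 114 peaks (7.48%) had a higher fold enrichment than that at Ndufb5. Counting genes rather than peaks, 4 of the 100 members (4%, interval 1.10% to 9.93%) had a gene-end peak with at least 6 fragments, against 3.74% of other genes. With a -log10 q of at least 5 the count was 2 of 100, Ndufb5 and Uqcrq (2%, interval 0.243% to 7.04%), against 2.74% of other genes. For comparison, the 13 ATF4 targets with a gene-end peak had a median fold enrichment of 6.23 and a median of 10 fragments, and 9 of those 16 target genes met the q-value threshold.

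**Figure D2:**
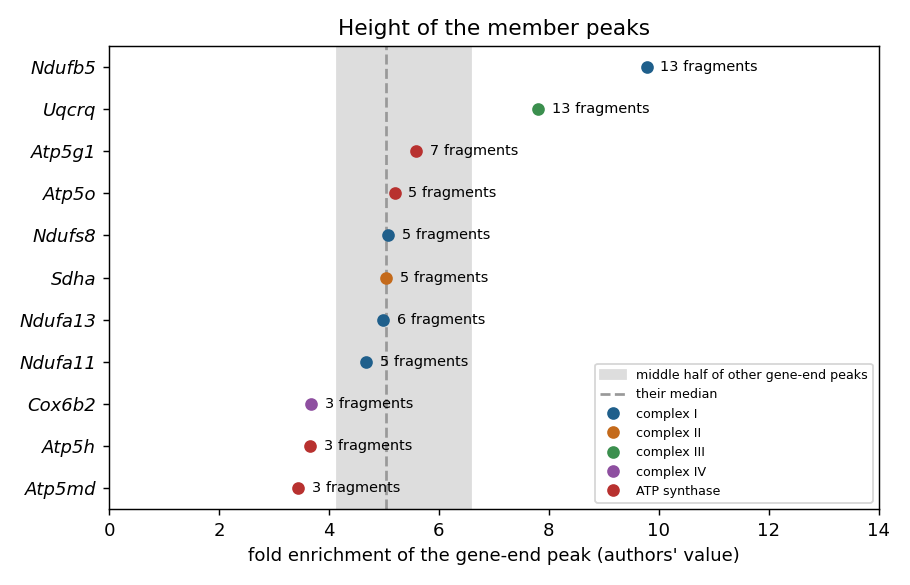
Fold enrichment (x axis, linear, the authors' values) of the 11 gene-end peaks, 1 point per gene, coloured by complex and labelled with the fragments at the summit; the grey band spans the quartiles of 1525 peaks at ends of other genes and the dashed line is their median (9 member peaks are also among these). Ndufb5 and Uqcrq, at 9.78 and 7.80, are the 2 points to the right of the band, and Cox6b2, Atp5h and Atp5md, with 3 fragments each, are to the left of it.

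Of the 89 members without a gene-end peak, 8 had a summit inside the gene or within 10 kb of an end. Just outside the 1 kb window the nearest was Ndufa4l2, at 2.08 kb, and just inside it the farthest was Ndufa13, at 593 bp. Ndufa4l2, a paralog of Ndufa4 that is known to be induced by hypoxia, had 2 summits inside the gene. The taller lay over chr10:127511942-127512997, 3.49 kb from the nearer end, with 34 fragments (23.5 to 47.5), a fold enrichment of 8.64 and q = 3.91e-20, the most fragments of any peak named here for a member. The other, chr10:127511353-127511605, had 14 fragments (7.65 to 23.5), a fold enrichment of 3.70 and q = 0.00171. The neighbouring gene Shmt2, of mitochondrial one-carbon metabolism, has its own gene-end peak 5.18 kb from the nearer end of Ndufa4l2.

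For 3 further members a peak with a -log10 q of at least 5 lay within 10 kb. The one near Ndufa9, an accessory subunit of complex I, was 6.24 kb outside the gene, over chr6:126815396-126815921, with 10 fragments (4.80 to 18.4) and 7.87-fold enrichment (q = 1.50e-08), and Ndufa9 was the nearest protein-coding gene. Those near Uqcr11 and Ndufa2 were gene-end peaks of other genes. The first lay 3.39 kb from Uqcr11 and 78 bp from an end of Mbd3, with 11 fragments and a fold enrichment of 7.64, and the second lay 7.30 kb from Ndufa2 and 10 bp from an end of Tmco6, with 15 fragments and a fold enrichment of 10.3. Peaks below that threshold lay within 10 kb of Ndufaf6, Ndufc2, Uqcrc2 and Atp5d, with 4 to 6 fragments.

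Beyond 10 kb, 39 members had their nearest summit at up to 100 kb and 42 farther away, compared with 41.7% and 39.0% of other protein-coding genes. The median distance from a gene end to the nearest summit was 72.2 kb for members (quartiles 17.3 and 147 kb) and 64.7 kb for other genes (17.0 and 171 kb). A summit inside the gene was found for 7 members (7%, interval 2.86% to 13.9%) and for 14.4% of other genes, a share above that interval. Members are shorter genes, with a median length of 7.34 kb against 17.2 kb. In length classes added after the data were seen, the shares among genes of 2 to 20 kb were 5 of 71 members (7.04%, interval 2.33% to 15.7%) and 7.66% of other genes, and among longer genes 1 of 16 (6.25%, interval 0.158% to 30.2%) and 24.0%; in both classes the members' interval held the share of other genes. Among genes of up to 2 kb they were 1 of 13 (7.69%, interval 0.195% to 36%) and 1.17%, which is inside that interval as well. When every summit was given to whichever protein-coding gene had the closest end, at any distance, 17 members received one (17%, interval 10.2% to 25.8%), compared with 25.1% for the remaining genes. The interval of the members held the share of the other genes in this assignment.

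**Figure D3:**
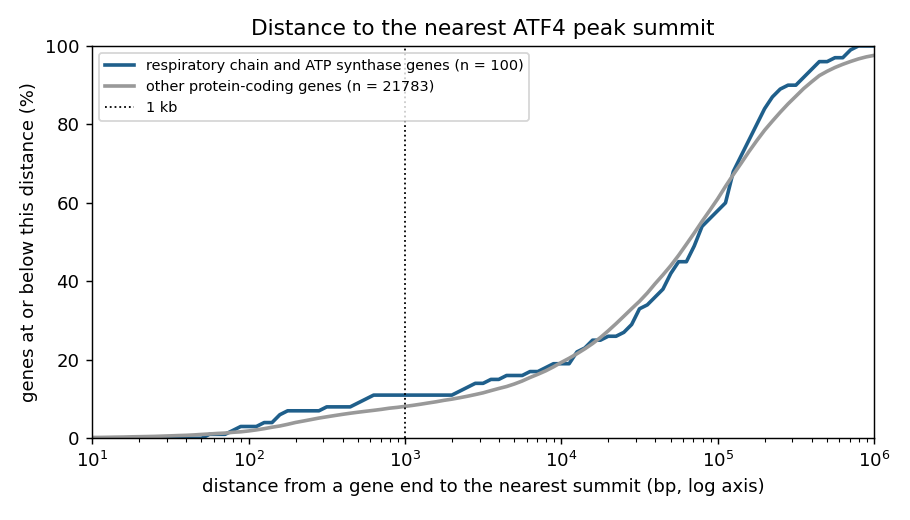
Share of genes (%, y axis) whose nearest ATF4 summit lies at or below the distance from a gene end given on the x axis (bp, log axis), for the 100 members and 21783 other protein-coding genes; the dotted line marks 1 kb. The curves run close together, at 11% and 8.12% at 1 kb and with medians of 72.2 and 64.7 kb.

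Gene arrangement moved with the count. For 9 of the 11 member genes the same summit also lay within 1 kb of an end of another protein-coding gene (81.8%, interval 48.2% to 97.7%), compared with 32.9% of the other genes that had a gene-end peak. Atp5g1 and Atp5o were the 2 without such a neighbour. At Ndufb5, Uqcrq, Ndufa13, Ndufa11 and Atp5md the end of the neighbour was nearer to the summit than the end of the member, so these 5 peaks cannot be assigned to the member by position. At Ndufs8 the second end, 628 bp from the summit, was that of Aldh3b1, at Atp5h it was that of Kctd2 (292 bp), and at Cox6b2 that of Fam71e2 (872 bp). Respiratory chain and ATP synthase genes lie close to other genes more often: 55 of 100 had an end of another protein-coding gene within 1 kb of an end (55%, interval 44.7% to 65.0%), against 24.7% of other genes. Among genes with such a neighbour, 9 of 55 members (16.4%, interval 7.77% to 28.8%) and 14.2% of other genes had a gene-end peak. Among genes without one the shares were 2 of 45 (4.44%, interval 0.543% to 15.1%) and 6.12%. Within either arrangement the share of other genes was inside the members' interval, and the part of gene arrangement in the overall count was not tested.

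**Figure D4:**
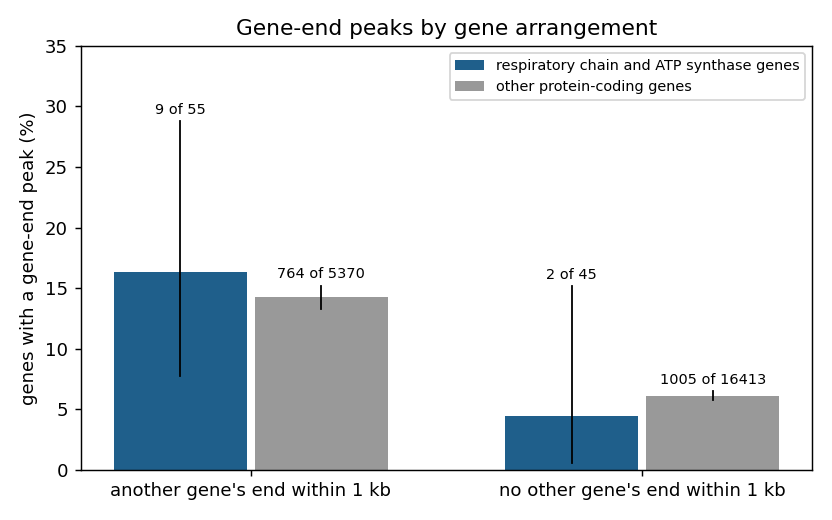
Share of genes with a gene-end peak (%, y axis from 0) for genes with and without an end of another protein-coding gene within 1 kb, in members and in other protein-coding genes; bars are shares, lines are Clopper-Pearson 95% intervals and counts stand above. The bars are 16.4% and 14.2% with a neighbour and 4.44% and 6.12% without one.

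Genes that build or serve the chain without carrying a member's symbol were counted in 5 lists. Of these 46 genes, 9 had a gene-end peak (19.6%, interval 9.36% to 33.9%), with a median fold enrichment of 5.08. This interval lies above the 8.12% of other protein-coding genes and overlaps that of the members. All lists here were chosen with earlier results of these data known, so their counts are not independent evidence. With at least 6 fragments, or with a -log10 q of at least 5, the list had 4 genes (8.70%, interval 2.42% to 20.8% for either), and that interval holds the 3.74% and the 2.74% of other genes. Complex IV assembly contributed 4 of 16 genes, among them Taco1, a translational activator of a mitochondrially encoded complex IV subunit, whose peak held 15 fragments with a fold enrichment of 9.46. In the list of complex III and cytochrome c, 2 of 8 genes had a peak, and that at Cycs, which encodes cytochrome c, held 7 fragments. Acad9, an assembly factor of complex I, had 10 fragments and was the 1 of 7 in its list. Coenzyme Q synthesis had 2 of 11 genes, with 6 fragments at Coq2, and the inhibitor and assembly genes of ATP synthase had 0 of 4. The 5 genes not named had 3 or 5 fragments. Assembly factors among the members had none in 12 genes (interval 0% to 26.5%). Mitochondrial ribosomal protein genes, which are also nuclear genes for mitochondrial complexes, had gene-end peaks at 8 of 78 (10.3%, interval 4.53% to 19.2%), 1 of them the peak that Mrpl47 shares with Ndufb5, and cytosolic ribosomal protein genes at 18 of 101 (17.8%, interval 10.9% to 26.7%). Both intervals overlap that of the members. The 8.12% of other genes lies inside the interval of the mitochondrial list and below that of the cytosolic list. With at least 6 fragments the cytosolic list had 8 of 101 genes (7.92%, interval 3.48% to 15%), an interval that holds the 3.74% of other genes. With a -log10 q of at least 5 it had 7 (6.93%, interval 2.83% to 13.8%), an interval above the 2.74% of other genes. The reading for this list thus depends on the threshold, and the differences were not tested.

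The promoter table held windows for 82 of the 100 members, and 4 motifs were searched in them on both strands. TGATGNAA, the core of the C/EBP-ATF response element to which ATF4 binds with its partners, was absent from all 82 windows (0%, interval 0% to 4.40%). Over all 17491 protein-coding genes with an entry the share was 4.13%, which lies inside that interval. Among genes with a gene-end peak, 0 of 10 members (interval 0% to 30.8%) and 4.88% of other genes held it, again a share inside the members' interval. TGACGTCA, the cAMP response element, was found in 4 members (4.88%, against 2.54% of all genes): Ndufa11, Ndufa10, Ndufb2 and Uqcrfs1. GCATGCGC, the core of the site of NRF1, a regulator of many respiratory chain genes, was found in 12 members (14.6%, interval 7.80% to 24.2%, against 3.93%). Among the 10 members with a window and a gene-end peak, 1 held it, Ndufa11 (10%, interval 0.253% to 44.5%). Of the 72 with a window and no gene-end peak, 11 held it (15.3%, interval 7.88% to 25.7%), and these intervals overlap. The 11 were Ndufa8, Ndufa6, Ndufaf4, Ndufaf5, Sdhb, Uqcrc1, Uqcr11, Cox6a1, Atp5g2, Atp5k and Atp5l. CCGGAAGT, an ETS site of the kind that GABPA binds, was in 5 members (6.10%, against 5.69%). It was in 1 of the 10 members with a gene-end peak, Atp5h (10%), and in 4 of the 72 without (5.56%). The window of Ndufa11 is shown because it alone among the 10 members with both a gene-end peak and a window holds 2 of the motifs; capitals mark TGACGTCA and a stretch in which GCATGCGC occurs on both strands with overlap.
Ndufa11 (chr17:56717512-56717811, plus strand): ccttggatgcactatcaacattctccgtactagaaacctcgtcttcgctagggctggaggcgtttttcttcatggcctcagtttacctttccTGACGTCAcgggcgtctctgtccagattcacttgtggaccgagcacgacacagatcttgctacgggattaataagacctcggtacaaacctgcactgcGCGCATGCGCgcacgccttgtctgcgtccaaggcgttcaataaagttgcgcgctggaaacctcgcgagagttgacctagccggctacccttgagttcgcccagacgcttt
TGACGTCA begins 158 bases before the start of Ndufa11, and the summit, 491 bp upstream, is outside this window. A match of letters is not a binding site, and a window of 300 bases leaves out motifs farther from the start.

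The GC content of the windows had a median of 58.6% in members, 58.3% in the 10 members with a gene-end peak and 56.3% in all genes. Other genes with a gene-end peak had a higher median, 61.7%. When windows were split at the quartiles of GC content over all genes, the share of other genes with a gene-end peak was 1.90%, 6.73%, 11.6% and 12.3% from the lowest GC content to the highest. In the same order, 0 of 7, 5 of 25, 3 of 40 and 2 of 10 members had one. The part of GC content in the count of members was not tested. Sequences and gene positions are those of RefSeq.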

How the data were processed

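CUT&Tag was done on primary neurons with an ATF4 antibody (1 library) or IgG (1 library, not analysed here). The authors deposited the ATF4 peaks as position, summit, fold enrichment (a linear ratio), -log10 p, -log10 q and a display score, which was not used here. The submitters' processing notes name BWA, MACS2 2.1.2 and mm10 without their roles; whether IgG served as control and which threshold was applied are not given in the sources used here. 

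Fragments at a summit were solved from fold and p-value with the formulas of MACS2, (fragments + 1)/(background + 1) and a Poisson upper tail, accepted within 0.001 of the -log10 p, which 7873 of 7873 peaks met. This number was taken as the depth of a peak, and PCR copies are not independent molecules. The total depth of the library was not used.

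Summits were joined to the RefSeq table of GRCm38.p6 (the assembly that mm10 denotes), counting both ends of a gene. Gene starts came from the RefSeq promoter table. Shares have Clopper-Pearson and fragments exact Poisson 95% intervals. Peak assignment and fragment recovery were checked on simulated peaks. Members and lists were chosen with earlier results of these data known. Named genes are members with a gene-end peak, members with a peak of -log10 q of at least 5 inside or within 10 kb, neighbours within 1 kb of the same summit, and list genes with a gene-end peak of at least 6 fragments; other genes were named after their values were seen. Alternatives were the window, overlap, peak thresholds, nearest-gene assignment, unshared ends, gene starts only and subunits only. Computations ran in Python 3.11.15 (scipy 1.17.1, pandas 2.3.3, numpy 2.4.6), with figures from matplotlib 3.10.9.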

Additional observations from a re-analysis of the deposited data

How the results depend on the processing

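The share of members with a gene-end peak was 11%, and stayed within its interval under 7 of 10 alternatives. It was 2% with a -log10 q of at least 5, 4% with at least 6 fragments and 2% when no other protein-coding end lay within 1 kb of the summit; the first 2 keep fewer peaks, and the last removes shared ones. The share of other genes moved with the same settings, to 2.74%, 3.74% and 5.50%, and was 6.64% with a 500 bp window, 11.3% with 3 kb, 5.40% with peaks above the median fold enrichment and 25.1% by nearest gene. The difference of both shares, read after the data were seen, was 2.88 percentage points and changed sign in 3 of 10 alternatives, to -0.74 with the q-value threshold, -8.14 by nearest gene and -3.50 without shared ends, so its direction depends on the setting; the cause was not tested. It was highest with subunits only (4.54). The median fold enrichment of member peaks was 8.79 with the q-value threshold, on 2 peaks, and otherwise stayed within its order-statistic interval.

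By complex, the share of complex I genes was 2.04% with the q-value threshold and 0% without shared ends. Complex II fell to 0% with the q-value threshold, with at least 6 fragments and without shared ends. Complex III was at 0% without shared ends and with gene starts only, where Uqcrq has no entry. Complex IV was at 0% with a 500 bp window, with either threshold on q-value or fragments, above the median fold enrichment and without shared ends. ATP synthase was at 0% with the q-value threshold, at 5.88% with at least 6 fragments, and at 11.8% both above the median fold enrichment and without shared ends. It was no longer highest in 5 alternatives: complex III was at 12.5% under the first 2 and at 25% with 3 kb, complexes II and III were at 12.5% above the median fold enrichment, and both were at 25% by nearest gene. Single complexes rest on 1 to 4 peaks, so 1 peak moves such a share strongly. No paired analysis was possible because there is 1 library per antibody and no result comes from a test between samples.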

Other observations

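The table also lists 19 pseudogenes whose symbols fit the rule, such as Atp5k-ps1 and Uqcrh-ps2, and 0 of them had a summit within 1 kb of an end (interval 0% to 17.6%), against 0.711% of 10410 other pseudogenes. Among members, those counted as accessory forms or paralogs, such as Cox6a2, Cox7a1 and Cox8b, had 1 gene-end peak in 9 genes (11.1%, interval 0.281% to 48.2%), at Cox6b2, and the 79 subunits had 10 (12.7%, interval 6.24% to 22.0%).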
